A study of Mus musculus with 11 samples.

Results

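The genes described here are 10 interferon-induced antiviral effectors: Ifit1, Ifit2, Ifit3, Mx1, Mx2, Rsad2, Bst2, Rtp4, Ifi35 and Ifi44. They were chosen by name, as the IFIT family and other effectors of the antiviral state, but with earlier results of these data known. All 10 were found among the 43346 genes of the deposited table. Expression was measured by RNA sequencing in whole liver of FVB/NJ mice bearing hepatocellular carcinoma. The 6 responder and 4 non-responder libraries carry the label anti-PD-1, an antibody that blocks an inhibitory receptor of T cells, and are split by their response label. A single further library has a response label that says non treatment, while its treatment label still names the antibody. It is called the no-treatment library here, and it has no replicate. Every library shares the tumour model, in which the liver expresses MET, the receptor for hepatocyte growth factor, together with β-catenin, which carries the Wnt signal into the nucleus. The labels name neither the promoter or vector of the transgenes nor the age of the mice, the dose or the time of sampling. They also do not state that each library is a mouse of its own, so the p-values are about the spread among the libraries, which may be technical.

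Interferons are secreted when cells sense foreign or misplaced nucleic acid, and they act on neighbouring cells through receptors, JAK kinases and STAT and IRF transcription factors. Those factors bind response elements in the promoters of a wide set of genes. Among them are the effectors described here, which interfere with viral RNA, capsids or budding, and most of which are scarce in resting hepatocytes. In bulk liver, fewer cells of a type and less RNA per cell cannot be told apart.

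Gene counts summed to between 17876515 and 40565708 per responder library, to between 25542066 and 39941835 per non-responder library and to 49884800 in the no-treatment library. Levels are given in CPM, the count relative to the library's total, with TMM scaling over the 11 libraries, and log2 fold changes are responder over non-responder from edgeR's quasi-likelihood test with Benjamini-Hochberg adjustment over all 17610 genes tested. Hepatocyte markers were abundant in every library. The 6 genes of that list summed to between 64130 and 77400 CPM in responders and between 92800 and 119900 CPM in non-responders. The sum was 65530 CPM in the no-treatment library. Most of it was Alb, at 56750 ± 5125 CPM in responders (SD, n = 6) and 85410 ± 6919 CPM in non-responders (SD, n = 4). Alb did not pass, at a log2 fold change of -0.60 ± 0.18 (SE, adjusted p = 0.0524 by edgeR). Of these 6 genes Apoa1 was called lower and Tat and Serpina1a higher in responders, and their part in the levels below was not tested.

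In responder livers 7 of the 10 genes were lower than in non-responder livers, and none was higher. These 7 were Ifit1, Ifit2, Ifit3, Mx1, Rsad2, Rtp4 and Ifi44, with adjusted p-values from edgeR between 0.0149 and 0.0330. Their log2 fold changes lay between -3.09 and -2.52, apart from Rtp4 at -1.33. Mx2, Bst2 and Ifi35 also had negative log2 fold changes, between -0.61 and -0.33, and did not pass the threshold. The median over the 10 genes was a log2 fold change of -2.68, beside -0.02 over all genes tested. Of all 17610 genes, 5.82% were called lower in responders and 4.11% were called higher.

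**Figure D1:**
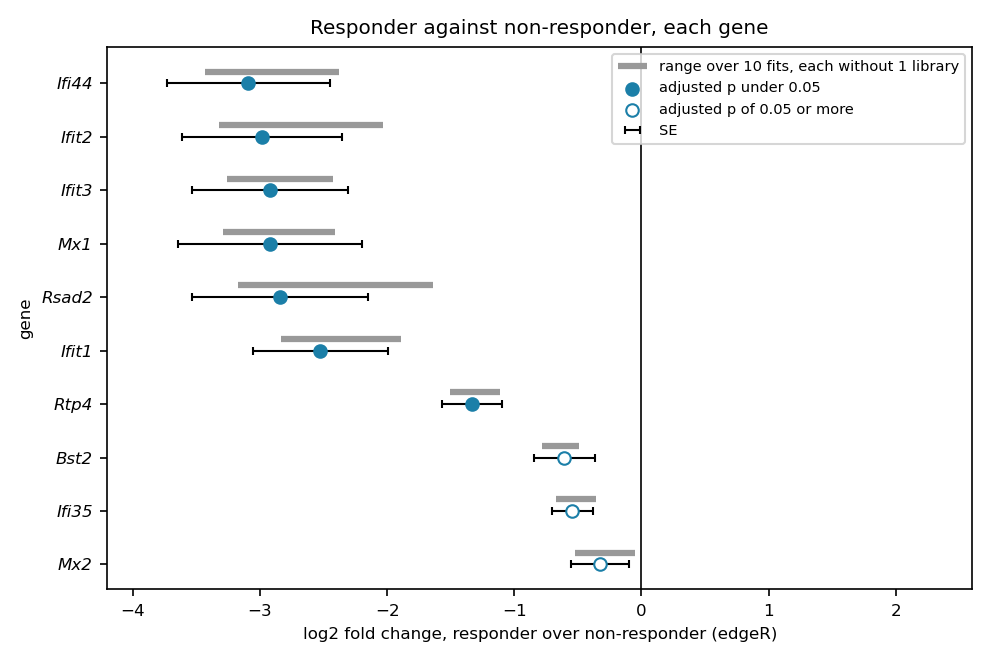
Log2 fold change (responder over non-responder, horizontal axis) of each of the 10 genes from edgeR, with its SE; filled points have an adjusted p under 0.05, and grey bars span 10 fits that each leave out 1 library. All points lie left of 0, with Ifi44 at -3.09 and Mx2 at -0.33 as the ends.

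Separation was less complete than these fold changes. Every responder library was below every non-responder library for 5 of the 10 genes, Ifit1, Ifit2, Ifit3, Rtp4 and Ifi44, a pattern found in 5.62% of all genes tested. The margin was small for 4 of them, with the lowest non-responder at 1.13 times the highest responder for Ifit1, 1.11 times for Ifit2, 1.05 times for Ifit3 and 1.09 times for Rtp4. Ifi44 had the widest gap of the 5, at 1.79 times. The calls also depended on single libraries. Without non-responder library 2, edgeR called 0 of the 10 genes at the adjusted threshold and 9 at an unadjusted p under 0.05, and the lowest adjusted p was 0.0603. The number lower in responders was 1 without responder library 2, 1 without responder library 5 and 3 without responder library 1. Calls over all genes fell in the same fits, from 1748 with every treated library to 79 without non-responder library 2. They were 324, 309 and 425 without responder libraries 2, 5 and 1, so the loss of calls was not particular to the 10 genes. All log2 fold changes of the 10 genes stayed negative in each of these fits. The number in each library's title nearly followed the groups, from 26 to 37 in non-responders and from 1 to 16 in responders apart from 1 at 29, and what it stands for is not given in the labels. With it as a covariate edgeR called 0 of the 10 genes, and 1 of all genes. Of the 10 genes, 7 had an unadjusted p under 0.05, and the median log2 fold change was -2.75. Title number and response thus cannot be fully told apart here.

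The promoters of 4 of the genes are shown because they hold the core of the interferon-stimulated response element, the sequence that the STAT and IRF factors bind. The windows run from 250 bases before to 50 bases after the RefSeq start site on GRCm38.p6, on the strand of the gene, and capitals mark each match to GAAANNGAAA on either strand.
Ifit1, chr19:34640639-34640938, plus strand: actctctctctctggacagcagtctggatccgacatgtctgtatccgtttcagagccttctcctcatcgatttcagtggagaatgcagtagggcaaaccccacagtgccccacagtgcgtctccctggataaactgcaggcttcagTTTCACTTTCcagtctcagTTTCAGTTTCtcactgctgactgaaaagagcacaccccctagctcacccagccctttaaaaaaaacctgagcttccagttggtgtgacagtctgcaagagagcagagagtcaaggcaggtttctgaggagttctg
Ifit3, chr19:34583279-34583578, plus strand: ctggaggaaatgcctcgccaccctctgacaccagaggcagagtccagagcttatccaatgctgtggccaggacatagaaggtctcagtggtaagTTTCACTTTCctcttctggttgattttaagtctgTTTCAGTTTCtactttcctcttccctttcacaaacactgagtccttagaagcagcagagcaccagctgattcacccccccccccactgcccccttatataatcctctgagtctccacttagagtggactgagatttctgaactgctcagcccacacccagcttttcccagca
Bst2, chr8:71537423-71537722, minus strand: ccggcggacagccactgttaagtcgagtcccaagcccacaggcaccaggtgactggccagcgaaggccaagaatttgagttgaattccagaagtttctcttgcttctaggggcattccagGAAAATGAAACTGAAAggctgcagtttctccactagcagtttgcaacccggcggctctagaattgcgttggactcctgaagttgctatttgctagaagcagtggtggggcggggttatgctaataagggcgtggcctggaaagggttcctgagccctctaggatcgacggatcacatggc
Rsad2, chr12:26456403-26456702, minus strand: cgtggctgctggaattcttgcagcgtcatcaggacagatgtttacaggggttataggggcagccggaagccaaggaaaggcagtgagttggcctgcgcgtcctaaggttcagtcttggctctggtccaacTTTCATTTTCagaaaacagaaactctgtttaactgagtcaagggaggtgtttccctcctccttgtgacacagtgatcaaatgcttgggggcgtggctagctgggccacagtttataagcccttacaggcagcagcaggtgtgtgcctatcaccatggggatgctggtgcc
The core lay at 104 to 95 and at 85 to 76 bases before the start of Ifit1, and at 156 to 147 and at 122 to 113 bases before that of Ifit3. In Bst2 the matches, at 130 to 121 and at 124 to 115 bases, overlap each other, and Rsad2 had 1 match at 120 to 111 bases. RefSeq windows were at hand for 7 of the 10 genes, 8 windows in all. The core was in 4 of the 7 genes, where 3.99% of all 27025 genes held it, and in 4 of the 8 windows, where 3.44% of all 32851 windows held it. Of these 8 windows, 3 held 2 or more matches, against 0.225% of all windows. The letters GAAANNGAAA were not in the windows of Ifit2, Ifi35 and Ifi44, and windows of Mx1, Mx2 and Rtp4 were not used here. A different motif, the gamma-activated sequence TTCNNNGAA, which reads alike on both strands, was in the windows of Bst2, where it overlaps the response element core, Ifi35 and Ifit2, so in 3 of the 7 genes, against 9.55% of all genes. A match describes the letters of the window and does not show that a factor was bound. Genes with the core were found on both sides of the test, since Ifit1, Ifit3 and Rsad2 passed it and Bst2 did not, while Ifit2 and Ifi44 passed it without a match.

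The IFIT proteins bind viral RNA, and Ifit1 blocks the translation of RNA whose cap lacks the methyl marks of host messages. Ifit1 lies on chr19:34640871-34650009 (mm10, plus strand). Its level ran from 1.68 to 4.12 CPM in responders with a median of 3.31 CPM, against 23.1, 35.6, 4.65 and 5.96 CPM in non-responder libraries 1 to 4, and it was 1.09 CPM in the no-treatment library. The groups did not overlap, and non-responder libraries 1 and 2 stood far above the other two. Means were 3.02 ± 1.02 CPM in responders (SD, n = 6) and 17.3 ± 14.8 CPM in non-responders (SD, n = 4), and the edgeR log2 fold change was -2.53 ± 0.53 (SE, adjusted p = 0.0223).

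Ifit2, a partner of Ifit1 and Ifit3 in the same protein complexes, is encoded upstream of Ifit3 at chr19:34550694-34576419 (mm10, plus strand). Responders ran from 2.34 to 4.69 CPM with a median of 2.99 CPM, against 29.2, 62.1, 5.19 and 5.61 CPM in non-responder libraries 1 to 4, and the no-treatment library had 2.24 CPM. A log2 fold change of -2.98 ± 0.63 (SE, adjusted p = 0.0225 by edgeR) went with means of 3.23 ± 0.84 CPM in responders (SD, n = 6) and 25.5 ± 26.8 CPM in non-responders (SD, n = 4). Library 2 held more than the other three non-responder libraries together, and the SD was larger than the mean.

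Ifit3, which in human cells stabilises IFIT1, lies between the other two at chr19:34583531-34588731 (mm10, plus strand). Its responder libraries had 0.605 to 2.90 CPM with a median of 1.55 CPM, against 25.98, 22.5, 3.06 and 4.35 CPM in non-responder libraries 1 to 4, and 1.17 CPM was found in the no-treatment library. The groups were apart by the smallest margin of the 3 family members, and non-responder library 1 was the highest here, where library 2 was for Ifit1 and Ifit2. The log2 fold change was -2.92 ± 0.62 (SE, adjusted p = 0.0223 by edgeR). The measurement is uncertain in 1 respect, since 51.2% of the 50-base stretches in Ifit3 transcripts also occur in its near copy Ifit3b. Ifit3b averaged 0.748 ± 0.253 CPM in responders (SD, n = 6) and 7.64 ± 7.34 CPM in non-responders (SD, n = 4), with a log2 fold change of -3.35 ± 0.69 (SE, adjusted p = 0.0208 by edgeR). For Ifit1 the shared stretches came to 7.13%, with Ifit1bl1 and Ifit1bl2, and for Ifit2 there were none. Ifit1bl2 averaged 0.208 ± 0.106 CPM in responders (SD, n = 6) and 0.438 ± 0.347 CPM in non-responders (SD, n = 4) and did not pass (adjusted p = 0.214 by edgeR), and Ifit1bl1 was too scarce to test.

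Mx1 and Mx2 are dynamin-like GTPases that trap viral nucleoproteins, in mice Mx1 in the nucleus and Mx2 in the cytoplasm. Many inbred laboratory strains carry defective alleles of both genes, and the mouse annotation used here lists Mx2 as a polymorphic pseudogene. The genes sit beside each other, Mx1 at chr16:97447035-97462907 on the minus strand and Mx2 at chr16:97535308-97560900 on the plus strand (mm10). Mx1 had 0.686 to 1.43 CPM in responders with a median of 0.957 CPM, against 13.8, 13.8, 0.873 and 1.001 CPM in non-responder libraries 1 to 4, and 0.370 CPM in the no-treatment library. Non-responder libraries 3 and 4 lay inside the responder range, so the log2 fold change of -2.92 ± 0.73 (SE, adjusted p = 0.0330 by edgeR) rested on libraries 1 and 2.

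Mx2 was more abundant and moved far less. It ran from 8.57 to 12.2 CPM in responders with a median of 10.1 CPM, against 19.2, 13.9, 7.19 and 10.6 CPM in non-responder libraries 1 to 4, and 7.15 CPM in the no-treatment library. Only libraries 1 and 2 of the non-responders were above all responders, and library 3 was below all of them. The log2 fold change was -0.33 ± 0.23 (SE, adjusted p = 0.382 by edgeR), and its approximate 95% interval ran from -0.77 to 0.12. The pair share few stretches, with 4.37% of the 50-base stretches of Mx1 and 4.38% of those of Mx2 found elsewhere.

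Rsad2 encodes viperin, a radical SAM enzyme that makes a nucleotide terminating viral RNA synthesis, and lies at chr12:26442753-26456452 (mm10, minus strand). Responders had 1.13 to 5.64 CPM with a median of 2.55 CPM, against 17.9, 57.1, 4.57 and 5.58 CPM in non-responder libraries 1 to 4, and the no-treatment library had 1.25 CPM. Responder library 2, the highest of its group, was above non-responder libraries 3 and 4, so the groups overlapped. The log2 fold change was -2.84 ± 0.69 (SE, adjusted p = 0.0323 by edgeR), and without non-responder library 2 it was -1.64 with an adjusted p of 0.108.

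Bst2, or tetherin, anchors budding enveloped virions to the cell surface and in mice is also a surface marker of plasmacytoid dendritic cells. The gene lies at chr8:71534264-71537437 (mm10, minus strand). It was the most abundant of the 10 genes, at 84.0 to 213 CPM in responders with a median of 119 CPM, against 243, 192, 186 and 190.1 CPM in non-responder libraries 1 to 4, and 78.9 CPM in the no-treatment library. Responder library 3 reached the level of the non-responders, and the other five lay below it. Bst2 did not pass, at a log2 fold change of -0.61 ± 0.24 (SE, adjusted p = 0.125 by edgeR). Bst2 was the 1 gene of the 10 in which non-responder libraries 2 to 4 were nearly level. Siglech, a marker of plasmacytoid dendritic cells, averaged 0.936 ± 0.581 CPM in responders (SD, n = 6) and 0.966 ± 0.677 CPM in non-responders (SD, n = 4). The 7 markers of those cells other than Bst2 summed to between 16.5 and 23.7 CPM in responders, to between 19.0 and 27.0 CPM in non-responders and to 18.6 CPM in the no-treatment library. Most of that sum was the single gene Tcf4, at 16.15 ± 2.52 CPM in responders (SD, n = 6) and 19.71 ± 3.12 CPM in non-responders (SD, n = 4), which did not pass. Of the 5 markers tested, 1 was lower in responders, Pacsin1, which averaged 0.160 ± 0.071 CPM in responders (SD, n = 6) and 0.413 ± 0.146 CPM in non-responders (SD, n = 4).

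Rtp4, a receptor transporter protein that in mice damps interferon signalling, lies at chr16:23609919-23614222 (mm10, plus strand). Its responder libraries ran from 3.75 to 8.15 CPM with a median of 5.65 CPM, against 13.3, 19.98, 8.86 and 14.7 CPM in non-responder libraries 1 to 4, and 4.44 CPM in the no-treatment library. The groups did not overlap, and the non-responders were closer to each other than for the IFIT genes, with library 4 above library 1. Means were 5.64 ± 1.48 CPM in responders (SD, n = 6) and 14.2 ± 4.58 CPM in non-responders (SD, n = 4), with a log2 fold change of -1.33 ± 0.24 (SE, adjusted p = 0.0149 by edgeR). Rtp4 had the lowest adjusted p of the 10 genes and passed in 9 of the 10 fits that each left out 1 library, missing without non-responder library 2 at an adjusted p of 0.0603 (edgeR). Of its 50-base stretches 11.6% are shared with Gm45338, which overlaps the longer Rtp4 model of GENCODE M21 outside the position given in the deposited table. The related gene Rtp3 had a log2 fold change in the other direction, 0.32 ± 0.12 (SE), and did not pass (adjusted p = 0.110 by edgeR).

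Ifi35, a leucine zipper protein that binds the related protein Nmi, lies at chr11:101448407-101458698 (mm10, plus strand). It had 19.96 to 26.7 CPM in responders with a median of 23.7 CPM, against 45.8, 31.5, 24.4 and 33.2 CPM in non-responder libraries 1 to 4, and 21.98 CPM in the no-treatment library. Non-responder library 3 lay inside the responder range. The log2 fold change of -0.55 ± 0.16 (SE) had an adjusted p of 0.0515 by edgeR, just outside the threshold. Another gene model, Gm11626, overlaps 16.8% of its exon bases. Nmi itself was lower in responders, at -0.74 ± 0.12 on the log2 scale (SE, adjusted p = 0.0147 by edgeR).

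Ifi44 encodes a GTP-binding protein that slows cell growth in human cells, and lies at chr3:151730922-151749947 (mm10, minus strand). Its responder libraries had 0.0807 to 3.10 CPM with a median of 1.44 CPM, against 11.8, 28.4, 5.55 and 7.01 CPM in non-responder libraries 1 to 4, and 0.678 CPM in the no-treatment library. The lowest value stands for 2 counts, in responder library 1, which is under a floor of 3 counts. Means were 1.54 ± 1.03 CPM in responders (SD, n = 6) and 13.2 ± 10.5 CPM in non-responders (SD, n = 4). The log2 fold change of -3.09 ± 0.64 (SE, adjusted p = 0.0213 by edgeR) was the largest of the 10, and the groups were also the farthest apart. The neighbouring family member Ifi44l had 0 counts in every library.

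**Figure D2:**
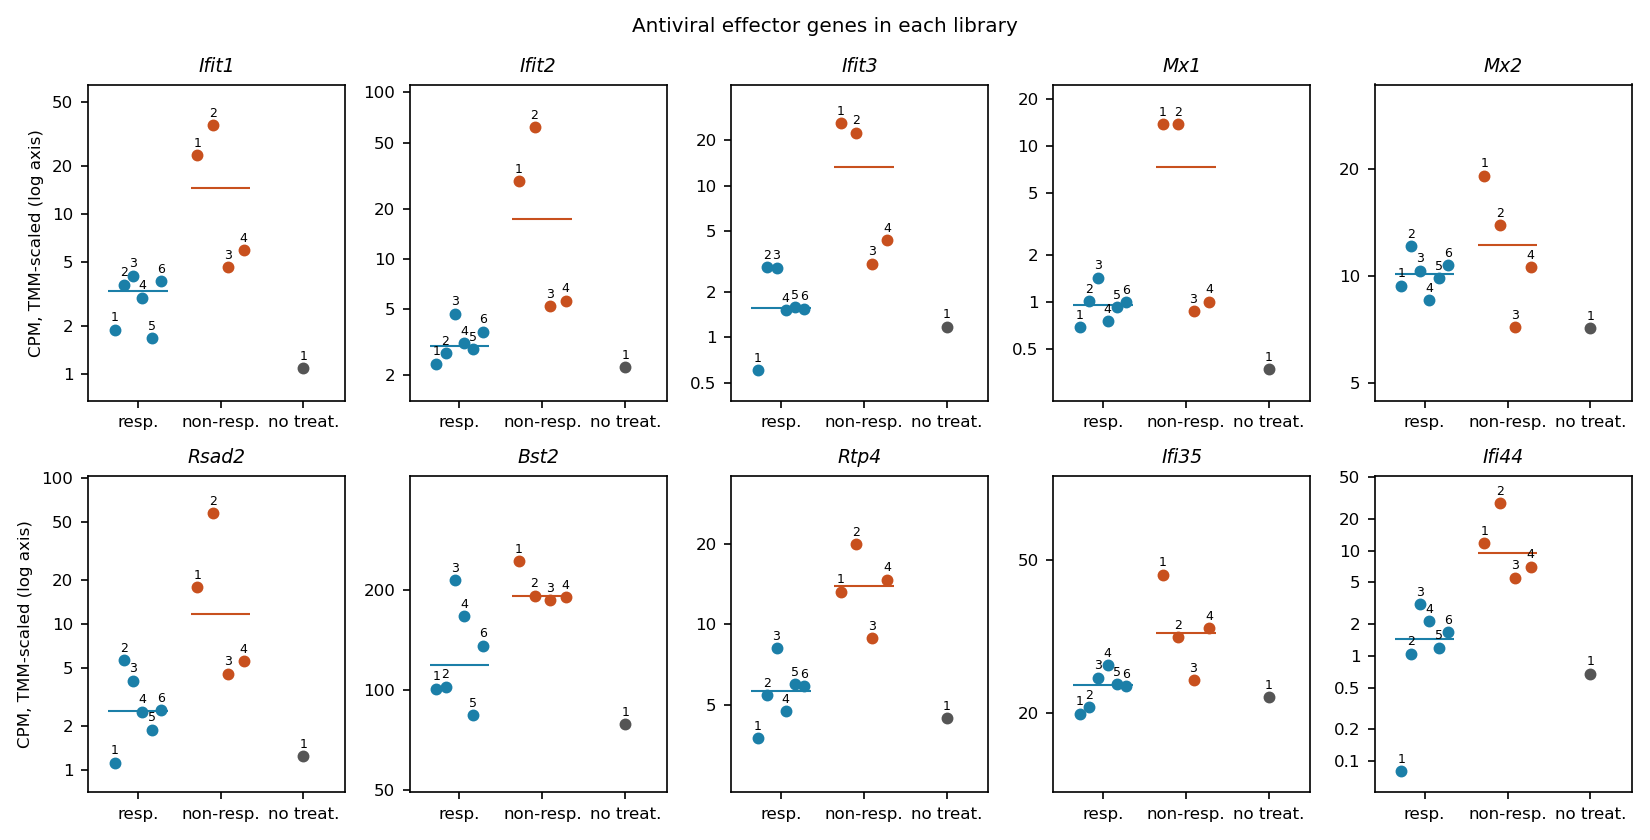
TMM-scaled CPM of each gene (vertical log axis) in each library, by group, with the replicate number above each point and a line at the median of responders and of non-responders. Non-responder libraries 1 and 2 stand above the other libraries for the IFIT genes, Mx1, Rsad2 and Ifi44, whereas Bst2 spans only 84.0 to 243 CPM in treated libraries.

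Per kilobase of listed length, the order of the responder medians was Bst2 at 156 CPM per kb, Ifi35 at 13.7, Rtp4 at 3.59, Mx2 at 2.80, Ifit1 at 1.25, Ifit3 at 0.891, Ifit2 at 0.761, Rsad2 at 0.589, Mx1 at 0.263 and Ifi44 at 0.235 CPM per kb. Bst2 and Ifi35 were each clear of their neighbours. Rtp4 and Mx2 overlapped, with 2.38 to 5.18 and 2.37 to 3.36 CPM per kb, and the ranges of Ifit1, Ifit3, Ifit2 and Rsad2 overlapped one another, as did those of Rsad2, Mx1 and Ifi44. In non-responders Bst2, at 243 to 318 CPM per kb, Ifi35 at a median of 18.7 and Rtp4 at 8.89 kept their places. Ifit3 came next at 7.69 CPM per kb, then Ifit1 at 5.48, Ifit2 at 4.43, Mx2 at 3.39, Rsad2 at 2.72, Mx1 at 2.03 and Ifi44 at 1.54 CPM per kb. Mx2, above the IFIT genes by median in responders, was below all 3 in non-responders, and the ranges of these 4 genes overlapped there.

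The genes differed in how the non-responder libraries spread. For 7 of the 10 genes, non-responder libraries 1 and 2 were the 2 highest treated libraries. The lower of those libraries over the higher of libraries 3 and 4 was 13.8 for Mx1, 5.20 for Ifit2, 5.16 for Ifit3, 3.89 for Ifit1 and 3.22 for Rsad2. It was 1.69 for Ifi44, 1.31 for Mx2, 1.01 for Bst2, 0.949 for Ifi35 and 0.903 for Rtp4, so that the split was wide in 5 genes and narrow or missing in the rest. Within the high pair, library 2 was 3.18 times library 1 for Rsad2, 2.40 times for Ifi44 and 2.13 times for Ifit2, whereas the ratio was 1.003 for Mx1 and 0.865 for Ifit3. Non-responder library 4 was above library 3 for all 10 genes. Among responders, library 1 was the lowest for 7 of the 10, and library 3 was the highest or second highest for 9 of the 10. The SD of log2 CPM was larger in non-responders than in responders for 8 of the 10 genes, the others being Bst2 and Ifi44. How many of all genes share these library orders or this wider spread was not counted, so they cannot be read as particular to the 10 genes.

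On a scale of log2 CPM centred on each gene's mean over the 11 libraries, the average of the 10 genes was -1.37 in responder library 1 and between -0.73 and 0.05 in the other responder libraries. It was 1.86, 2.23, 0.05 and 0.41 in non-responder libraries 1 to 4, and -1.23 in the no-treatment library. The averages of responder library 3 and non-responder library 3 thus met at 0.05. Ifit1 was closest to this average, with a root mean square difference of 0.415, and Ifi44 was farthest, at 1.10. The 5 other genes nearest to it, among 12687 tested genes whose log2 CPM averaged at least 1, were Irf7 at 0.282, Cd14 at 0.325, Calml4 at 0.341, Apcs at 0.341 and Tmsb10 at 0.382. The median gene was at 1.13. Depth differed among the 11 libraries, and all genes of a library share its depth and scaling. Irf7 is the transcription factor that amplifies interferon production, Cd14 is a co-receptor for bacterial lipopolysaccharide, and Apcs is the pentraxin serum amyloid P, secreted by hepatocytes. Irf7 ran from 7.10 to 17.4 CPM in responders, against 57.8, 46.5, 14.7 and 16.8 CPM in non-responder libraries 1 to 4, so responder library 3 was above the 2 lower non-responders. Apcs ran from 80.8 to 181 CPM in responders, against 408, 527, 165 and 206 CPM in non-responder libraries 1 to 4.

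**Figure D3:**
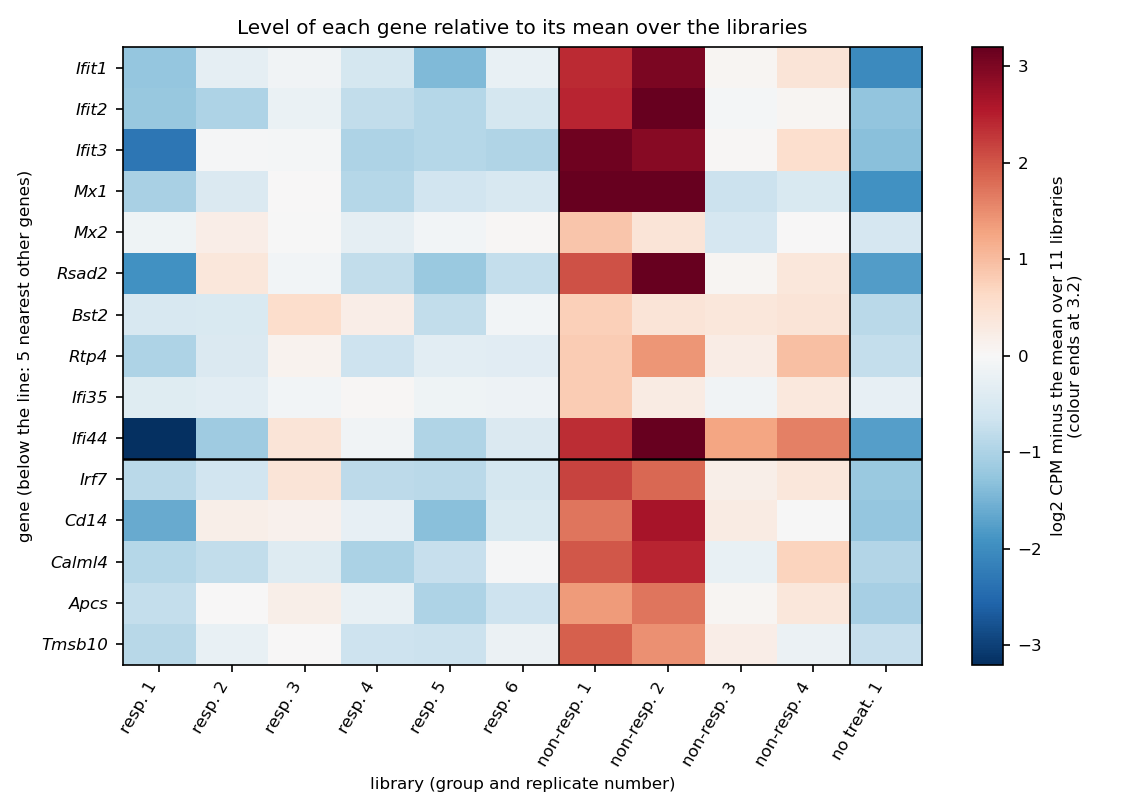
Log2 CPM minus the gene's mean over 11 libraries (colour, ending at 3.2 in either direction) for the 10 genes and, below the line, the 5 other genes with the nearest profile, by library along the horizontal axis. Non-responder libraries 1 and 2 are highest in most lines. With a prior count of 2, which the colours leave out, the averages over the 10 genes are 1.86 and 2.23 there and 0.05 in non-responder library 3.

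The single no-treatment library gives no test. It was below every responder library for 5 of the 10 genes, Ifit1, Ifit2, Mx1, Mx2 and Bst2, and inside the responder range for the other five, where 11.7% of all genes tested were below every responder. It was below every non-responder library for all 10 genes, a pattern found in 25.4% of all genes tested. It was the lowest of the 11 libraries for 5 genes, and responder library 1 was the lowest for the other five.

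The rest of the pathway was described from lists by role, also chosen with earlier results of these data known. They held 94 genes, of which 77 could be tested. Of these 77, 26 were lower in responders, 0 were higher and 51 did not pass, with a median log2 fold change of -0.52. Over all genes tested, 5.82% were called lower and 4.11% higher, with a median of -0.02. The interferons themselves were barely detected. Of the 18 ligand genes, 16, Ifnb1 included, had 0 counts in all 11 libraries, which allows up to between 0.0601 and 0.168 CPM in a library (3 counts, for counting error only). Ifng had 11 counts over the responders, 8 over the non-responders and 0 in the no-treatment library. Ifnk, the 1 ligand that could be tested, had a log2 fold change of 0.09 ± 0.39 (SE, adjusted p = 0.915 by edgeR).

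Among 6 receptor genes, 2 were lower in responders, Ifnlr1 for lambda interferons and Ifngr1 for interferon gamma. Ifnlr1 averaged 0.256 ± 0.224 CPM in responders (SD, n = 6) and 2.35 ± 2.11 CPM in non-responders (SD, n = 4), with a log2 fold change of -3.08 ± 0.70 (SE, adjusted p = 0.0248 by edgeR). Its non-responder libraries 1 and 2, at 5.09 and 2.93 CPM, were above libraries 3 and 4, at 0.642 and 0.726 CPM. The receptor for type I interferons was nearly level, with Ifnar1 at 50.3 ± 2.08 CPM in responders (SD, n = 6) and 49.4 ± 6.55 CPM in non-responders (SD, n = 4). Ifnar2 was at 46.2 ± 4.80 CPM in responders (SD, n = 6) and 44.6 ± 4.47 CPM in non-responders (SD, n = 4). Of 13 kinases and transcription factors 3 were lower, with Irf7 at a log2 fold change of -1.86 ± 0.41 (SE, adjusted p = 0.0237 by edgeR) and Irf9 at -0.67 ± 0.16 (SE, adjusted p = 0.0263 by edgeR). Irf1 was the third. Stat2 was at -0.06 and did not pass.

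Sensors of nucleic acid gave 4 lower genes of 13, among them Ddx58, which encodes the RNA sensor RIG-I, at -0.75 ± 0.13 (SE, adjusted p = 0.0150 by edgeR), and Tlr3, which senses double-stranded RNA in endosomes, at -1.04 ± 0.20 (SE, adjusted p = 0.0170 by edgeR). Negative regulators gave 2 of 8. Usp18, which removes Isg15 from proteins and blocks the type I receptor, was at -3.19 ± 0.34 (SE, adjusted p = 0.0105 by edgeR), and Socs1, an inhibitor of JAK kinases, was at -2.03 ± 0.44 (SE, adjusted p = 0.0225 by edgeR). Of 37 other effectors 15 were lower, with a median of -0.81 over that list. Oas1a, which makes the oligoadenylate that activates RNase L, was at -3.15 ± 0.54 (SE, adjusted p = 0.0149 by edgeR). Isg15, a ubiquitin-like modifier, was at -2.65 ± 0.48 (SE, adjusted p = 0.0172 by edgeR). None of the 6 lists held a gene called higher. Effectors were the largest list, so their count is not set against those of the others. Without non-responder library 2 the number of lower pathway genes was 1, and it was 7 without responder library 1, 2 or 5. Calls over all genes fell in these fits too, to 79 without non-responder library 2 and to between 309 and 425 without those responder libraries.

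**Figure D4:**
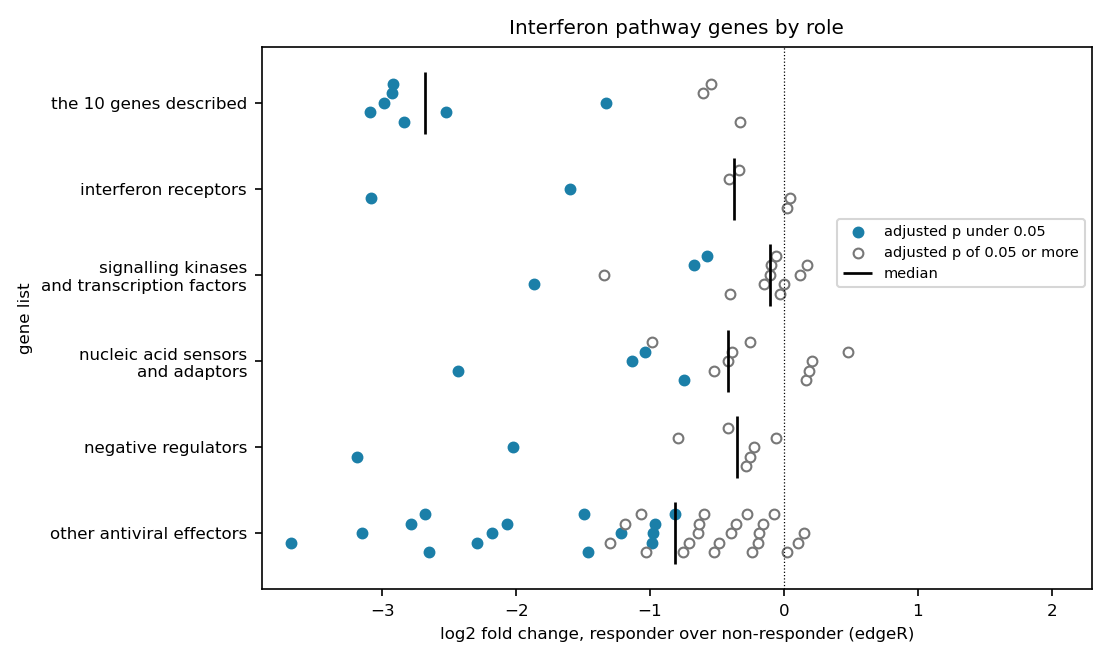
Log2 fold change (responder over non-responder, horizontal axis) of the 10 genes and of tested genes in 5 lists of interferon pathway genes; each point is a gene, filled where its adjusted p from edgeR is under 0.05, and the bar is the list median. Medians are -2.68 for the 10 genes, -0.81 for other antiviral effectors and -0.11 for kinases and transcription factors.

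Other cell types were followed by their markers. The 5 natural killer cell markers summed to between 0.242 and 1.27 CPM in responders, to between 1.53 and 8.50 CPM in non-responders and to 0.678 CPM in the no-treatment library, and the highest sum was in non-responder library 2. Most of that sum was the single gene Klrb1c, at 7.66 CPM in that library, which was the 1 lower in responders of the 3 tested. Ncr1, a defining receptor of these cells, averaged 0.295 ± 0.162 CPM in responders (SD, n = 6) and 0.276 ± 0.111 CPM in non-responders (SD, n = 4), and Eomes did not pass. The 8 Kupffer cell and macrophage markers summed to between 170 and 575 CPM in responders, to between 73.1 and 399 CPM in non-responders and to 251 CPM in the no-treatment library, with 0 of 8 called by edgeR and the lowest sum in non-responder library 1. The 7 T cell markers summed to between 4.47 and 9.15 CPM in responders, to between 4.07 and 12.5 CPM in non-responders and to 3.82 CPM in the no-treatment library, with 0 of 7 called. Sums for B cells, neutrophils and sinusoidal endothelium overlapped between responders and non-responders, and no marker list was at 0. Of the endothelial markers only Lyve1 was lower in responders, with 3.80 ± 0.96 CPM in responders (SD, n = 6) and 10.2 ± 3.28 CPM in non-responders (SD, n = 4) and no overlap between the groups. Kdr, Clec4g and Stab2 had log2 fold changes in the other direction, at 0.62, 0.61 and 0.29. Pecam1 was at -0.30, and none of these others passed. A list of 5 tumour genes, Afp, Gpc3, Glul, Axin2 and Mki67, summed to between 330 and 1272 CPM in responders, to between 787 and 2330 CPM in non-responders and to 298 CPM in the no-treatment library, with 0 of 5 called by edgeR. Afp, the fetal liver protein used as a tumour marker, averaged 38.1 ± 56.6 CPM in responders (SD, n = 6) and 246 ± 115 CPM in non-responders (SD, n = 4). Its median was 2.21 CPM in responders, within 1.38 to 121 CPM, and 243 CPM in non-responders, within 115 to 382 CPM. Gpc3 had a median of 0.526 CPM in responders, within 0.236 to 120 CPM. In non-responders its median was 177 CPM, within 112 to 494 CPM. The tumour gene sum was highest in non-responder library 4 and, among non-responders, lowest in library 1, where the IFIT genes were high. Much of that sum was Glul, with medians of 427 CPM in responders and 821 CPM in non-responders, and 287 CPM in the no-treatment library. The part of these cells, or of tumour content, in the levels of the 10 genes was not tested.

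Read coverage along the genes also set 1 library apart. Of 8 genes with enough exon counts, 5 had the largest share of reads in the last exon in non-responder library 1. Ifit3 and Mx1, the latter with only 2 of its 15 exons used, had it in responder library 1, and Rtp4 in responder library 6. The share of all genes highest in non-responder library 1 was not counted. For Rsad2 the last exon held 91.2% in non-responder library 1 and between 66.5% and 82.1% in the other libraries, and for Ifi35 it held 25.99% against 12.8% to 20.1%. Without non-responder library 1 edgeR called 5 of the 10 genes lower in responders, and 1712 of all genes in either direction. The lost ones of the 10 were Mx1 (adjusted p = 0.0772 by edgeR) and Rsad2 (adjusted p = 0.0544 by edgeR). Their log2 fold changes without it were -2.42 for Mx1 and -2.91 for Rsad2, beside -2.92 and -2.84 with it. Gene counts of non-responder library 1 also differed more from those of its group than in any other pair of libraries within a group.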

How the data were processed

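Total RNA of mouse livers, isolated with TRIzol per the labels' protocols, was sequenced. The deposited gene table holds raw counts per gene and library, with a listed length and position and an RPKM column that was used for no result, per the file headers. A second deposited table holds raw counts per exon, per the file headers, and served for exon shares and summed counts. The submitters' processing notes name FastQC and mm10. For the aligner, counter, annotation release and strandedness, nothing is given in the sources used here, so genes that overlap or share sequence are uncertain.

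Libraries were grouped by their response label. Counts of 6 responder and 4 non-responder libraries were fitted over the whole table with edgeR 4.0.16 in R 4.3.3, with filterByExpr, TMM scaling, robust quasi-likelihood F tests and Benjamini-Hochberg adjustment at 0.05. The SE is the size of the log2 fold change divided by the root of F. Profiles used log2 CPM with a prior count of 2, apart from the colours of the profile figure, which used none. Within a group no pair of libraries agreed within sampling noise, since the closest pair had a median chi-square 4.8 times that of counting alone. Non-responder library 1 differed most, at 43.7, 55.4 and 51.2 times against non-responder libraries 2, 3 and 4. No other pair within a group was above 14.7 times. Floors cover counting error only, while the intervals are built on the SE and so also take in the spread among the libraries.

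Named were all 10 genes, the 2 pathway genes of each list with the smallest p, a fixed set of pathway genes (1 of which is not reported here), the paralogs, the 5 nearest profiles and markers called or moving with a result. Irf1, Ifng and the libraries said to stand apart were picked after seeing them. The genes and lists were chosen with earlier results of these data known. The edgeR step was tested on simulated data. Promoter windows came from RefSeq (GRCm38.p6), and shared sequence was counted as 50-base stretches of GENCODE M21 transcripts. Alternatives were other scalings, filters and thresholds, DESeq2 1.42.0, limma-voom (limma 3.58.1), the title number as a covariate, the no-treatment library in the model, summed exon counts, and each library left out in turn.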

Additional observations from a re-analysis of the deposited data

Results flagged for a closer look

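Bst2 was picked out because its highest non-responder library, replicate 1 at 243.2 CPM, stood apart from the other three, which lay between 185.9 and 191.9 CPM. The gap exceeded Dixon's 95% critical value for 4 samples. It was the only 1 found among 20 sets tested, 10 genes in responders and 10 in non-responders, and chance gives about 1 in 20.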

How the results depend on the processing

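All 10 log2 fold changes stayed negative under every alternative run, and the number of genes lower in responders (7) held under RLE and upper quartile scaling, library size only, edgeR without robust estimation, summed exon counts and the no-treatment library in the model. It was 4 with no filter on low counts and 2 with limma-voom, whose median log2 fold change was -1.90. With the title number as a covariate edgeR called 0 of the 10 genes and 7 at an unadjusted p under 0.05, 0 pathway genes, and 1 of all genes, with 1857 of all genes at an unadjusted p under 0.05. Over all genes DESeq2 called 3057 and a threshold of 0.10 called 3180, against 1748. Ifi35 passed under DESeq2 (adjusted p = 0.0214), with an average CPM of at least 1 (adjusted p = 0.0489 by edgeR) and at a threshold of 0.10. Leaving out 1 library at a time gave 0 to 8 genes, a median of -3.01 to -1.77, 1 to 34 pathway genes and 79 to 1994 genes in all. The cause was not tested. No paired analysis was possible because the replicate numbers only follow accession order and the columns carry none. With 4 non-responder libraries that differ this widely, a spread shared over genes limits what the test can resolve, and the lowest counts, as for Ifi44 in responder library 1, carry large counting error.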

Other observations

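Usp18 ran from 2.11 to 6.10 CPM in responders, against 36.1, 51.1, 23.6 and 24.5 CPM in non-responder libraries 1 to 4, so all non-responders lay well above all responders. Isg15 reached up to 10.2 CPM in responders, against 79.0, 62.1, 10.9 and 19.2 CPM in non-responder libraries 1 to 4, the same order of the 4 libraries as for Ifit3. The look at library order was chosen after these values were seen.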
